A study of Mus musculus with 8 samples.

Results

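The genes described here act from G2 to the end of mitosis: the spindle assembly checkpoint, the kinetochore, the chromosomal passenger complex, condensin I, the enzymes that open mitotic exit, the kinases and phosphatases of mitotic entry, and proteins that build the spindle. They were chosen by name as 33 genes of mitosis, and every array probe whose accession belongs to one of them was taken. The choice was made with earlier results of these data known. Of the 33, 32 were matched to at least 1 probe, among 32053 features on the array, and Prc1 was matched by no accession and has no value. The 32 genes had 46 probes, and unless another probe is named the values are those of a gene's brightest probe, which was well above background on all 8 arrays for each of the 32.

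In mitosis, kinetochores on the centromeres catch spindle microtubules, and the checkpoint proteins hold back the anaphase-promoting complex (APC/C) until every chromosome is attached. The APC/C, with Cdc20, then marks securin and cyclin B for destruction, separase cuts cohesin, and the cell leaves mitosis. Most of these genes are transcribed from G2 to mitosis, so their RNA is abundant in dividing cells and low in cells that have stopped dividing.

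All 8 samples were mammary tumour cells of FVB mice carrying the polyoma middle T oncogene (PyMT), and all had been kept for 36 h in 50 uM camptothecin, which traps topoisomerase I on DNA. Samples from untreated cells were not analysed here, so each difference is between drug-treated cells. The knockdown experiment used the line WTA, which is wild type for Mtdh, infected with the lentivirus LKO1-shSnd1 (Snd1 knockdown, 3 arrays) or with the empty LKO1 vector (3 arrays) and selected with puromycin. The rescue experiment used the line KO2, from Mtdh-knockout tumours, given LmPGK-mMtdh-ires2-GFP with wild-type Mtdh (1 array) or with the spm13 form, which carries the W391D mutation (1 array), and sorted for GFP. Mtdh (metadherin) is the binding partner of the nuclease-domain protein Snd1, and the series asks how their interaction bears on survival under replication stress. Each genotype is 1 line, the knockdown label names 1 hairpin construct, and the labels do not say that replicates were separate cultures, so p-values measure the spread between these samples only. Each sample was labelled with Cy5 and hybridised against Cy3-labelled reference RNA from 11 mouse cell lines, and every value below is a log2 ratio of Cy5 to Cy3 or a difference between such ratios.

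The labels were checked first. Snd1 stood at -2.49, -2.40 and -2.43 on the vector arrays and at -3.23, -3.33 and -3.44 on the knockdown arrays, a log2 fold change of -0.90 ± 0.06 (SE, 3 against 3 arrays; limma, adjusted p = 1.04e-05). The cyclin-dependent kinase inhibitor Cdkn1a rose by 3.33 ± 0.05 on the log2 scale. All 14 mammary epithelial markers on the array were well above background on all 8 arrays, and their median ratio was 2.39 to 2.66 on the vector arrays, 1.2 to 1.42 on the knockdown arrays, and 2.79 and 2.64 on the wild-type and W391D rescue arrays. Between 78.0% and 88.5% of spots per array were well above background in Cy5, and the lowest correlation between arrays of a group was 0.978.

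Snd1 knockdown lowered every one of the 32 genes. All 32 passed limma's test at an adjusted p under 0.05 as lower in the knockdown and 0 as higher, whereas 21.1% of the 25684 features tested were lower and 23.6% higher. Of the 32, 16 were lower by at least 2-fold, against 1.51% of all features. The median log2 fold change was -1.0 over the 32 genes and 0.02 over all features. For each of the 32, all 3 knockdown values lay below all 3 vector values, an order seen in 24.5% of features. The decline ranged from 3.12-fold for Cdca3 to 1.14-fold for Tpx2, with standard errors of 0.04 to 0.08 on the log2 scale. Within each of the slides the 32 differences were all below 0, from -1.62 to -0.17 on slide 1 and from -1.65 to -0.20 on slide 2. Slide 1 held replicate 1 of each group, so its differences are 1 array against 1, and slide 2 held replicates 2 and 3. In RNA from whole cultures, fewer dividing cells and less of these RNAs per dividing cell cannot be told apart.

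**Figure D1:**
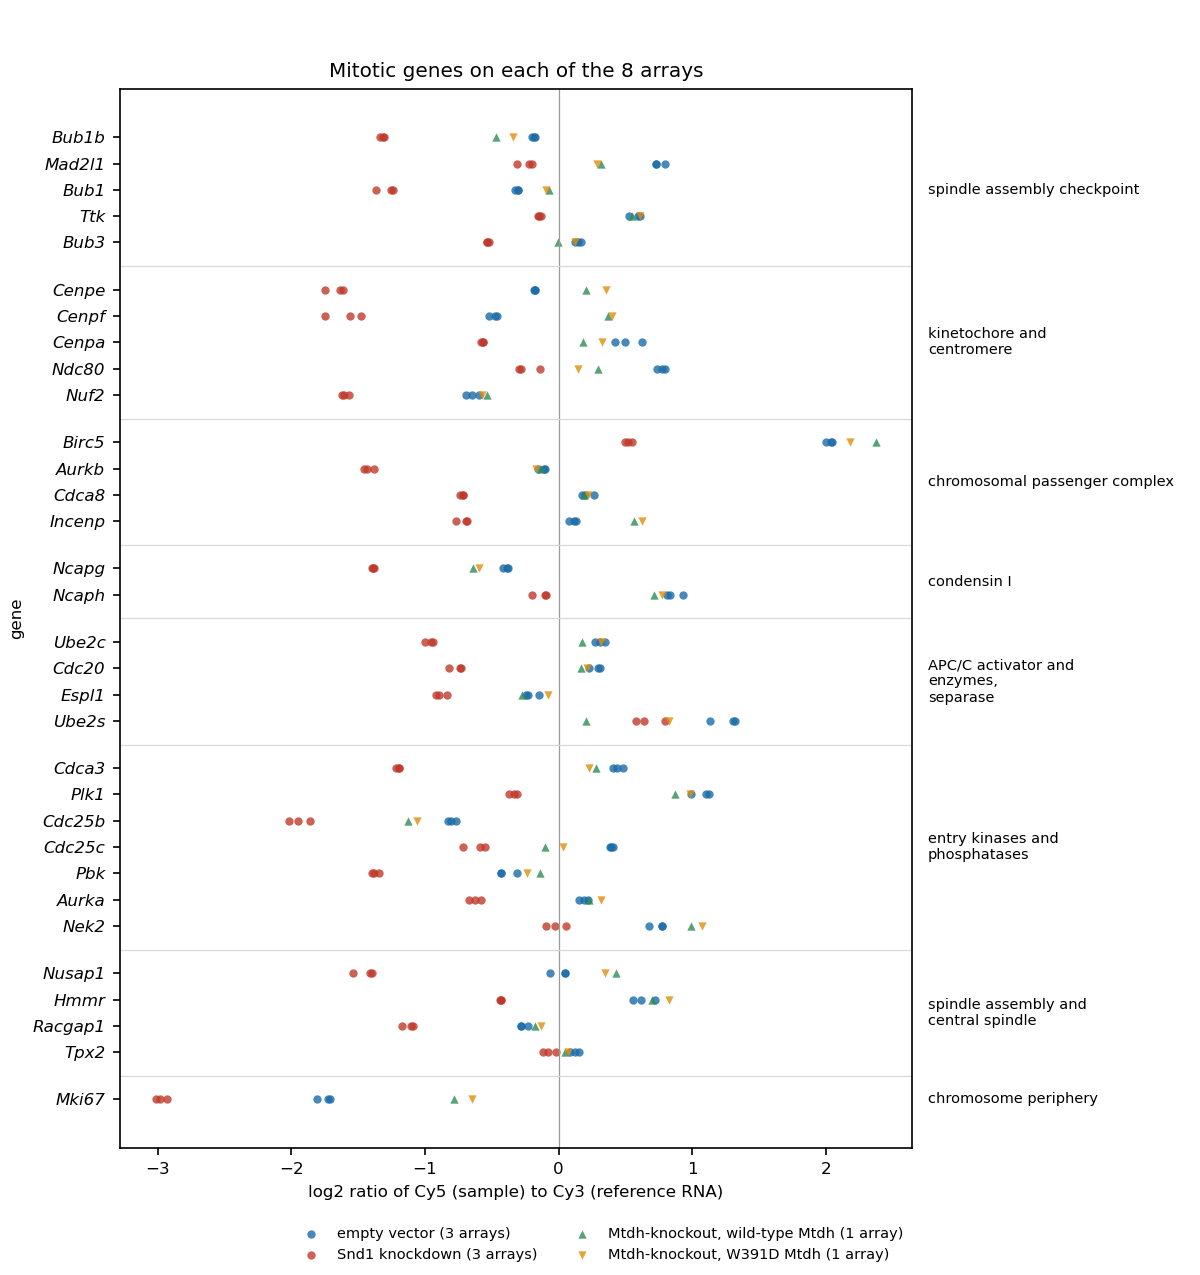
Log2 ratio of Cy5 to Cy3 (horizontal axis) of the 32 genes (rows, grouped by role) on the 3 vector, 3 knockdown and 2 rescue arrays, 1 point per array. In every row the 3 knockdown points lie left of the 3 vector points, and both rescue points lie right of the knockdown points except for the wild-type rescue of Ube2s.

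Markers of other cell types were read beside the same shares of all features, 21.1% lower and 23.6% higher. Of 11 fibroblast markers tested, 7 were higher in the knockdown and 1 was lower, with a median change of 0.20. Far above that median were periostin (Postn; 2.72 ± 0.04), Pdgfrb (2.44 ± 0.05) and Col1a1 (2.39 ± 0.07, but 0.72 and 0.20 by 2 other probes). The lower one, named after its value was seen, was Fn1 (-0.44 ± 0.05, and -0.33 and -0.24 by 2 other probes). The median ratio of the fibroblast list stayed far below the reference, at -3.57 to -3.49 on the vector and -3.18 to -3.13 on the knockdown arrays. Of 14 epithelial markers 9 were lower and 3 higher, with Elf5 (-2.03 ± 0.10), Krt8 (-0.86 ± 0.05) and Krt14 (-1.15 ± 0.07) among the lower. The 3 higher ones, named after their values were seen, were Krt19 (0.89 ± 0.23), Elf3 (0.69 ± 0.05) and Cldn4 (0.34 ± 0.10). Leukocyte markers, lower in 2 and higher in 2 of 10 tested, were near those shares: Cd14 changed by -0.47 ± 0.05, Csf1r by -0.30 ± 0.08 (0.09 and -0.19 by 2 other probes) and Cd74 by 0.23 ± 0.07. Endothelial markers were lower in 2 and higher in 2 of 6: Flt1 changed by 0.72 ± 0.04, Kdr by 0.67 ± 0.07 and Emcn by -0.30 ± 0.05, and 1 of the 8 endothelial markers was above background on no array. Whether cell composition has a part in the decline of the mitotic genes was not tested.

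Promoters of G2 and M phase genes often hold the cell cycle genes homology region (CHR; TTTGAA, with TTCGAA as a variant), which the DREAM and MuvB complexes bind, and CCAAT boxes, which NF-Y binds. RefSeq promoter windows of mouse build GRCm38.p6, from 250 bases before to 50 after an annotated start, were matched by symbol for 28 of the 33 genes, as 30 windows, since Bub3 and Prc1 have more than 1. No window was matched for Aurkb, Cdc25c, Incenp, Pbk and Tpx2. The letters TTTGAA or their complement TTCAAA lay in 66.7% of the 30 windows, against 17.9% of the 32851 windows in the table. TTCGAA, which reads the same on both strands, lay in 13.3% against 1.56%, and CCAAT or its complement ATTGG in 76.7% against 37.4%. Counted by gene instead of by window, the shares were 64.3% against 20.2%, 14.3% against 1.80% and 75% against 41.1%, in the same order. The motifs do not overlap in their letters. In the 250 bases before the start alone, the share with TTTGAA was 26.7%, against 16% of all windows, since 11 of the 21 matches lie after the start. There are 4 classes that hold a measured gene with these letters before the start, and the one that declined most in each is shown, as the 150 bases just before its start. Capitals mark the CHR and CCAAT letters on either strand.
Bub3: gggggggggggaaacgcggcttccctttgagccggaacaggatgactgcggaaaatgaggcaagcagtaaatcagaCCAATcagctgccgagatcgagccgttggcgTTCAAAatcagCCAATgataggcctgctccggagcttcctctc
Ncapg: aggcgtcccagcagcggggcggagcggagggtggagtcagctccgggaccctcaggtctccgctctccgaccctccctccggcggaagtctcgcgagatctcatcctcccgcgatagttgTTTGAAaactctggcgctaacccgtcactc
Ube2c: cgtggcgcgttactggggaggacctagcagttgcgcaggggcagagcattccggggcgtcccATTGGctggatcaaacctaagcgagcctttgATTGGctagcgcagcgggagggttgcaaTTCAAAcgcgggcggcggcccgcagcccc
Mki67: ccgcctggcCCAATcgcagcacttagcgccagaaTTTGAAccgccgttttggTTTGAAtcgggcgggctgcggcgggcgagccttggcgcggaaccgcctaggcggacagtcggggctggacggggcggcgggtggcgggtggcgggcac
The Bub3 stretch is chr7:131560220-131560369 on the forward strand, Ncapg chr5:45669775-45669924 on the forward strand, Ube2c chr2:164769779-164769928 on the forward strand and Mki67 chr7:135716380-135716529 on the reverse strand. The CHR letters begin at -43 in Bub3, -30 in Ncapg and -29 in Ube2c, and at -116 and -98 in Mki67. Of the 27 measured genes with a window, the 17 with TTTGAA had fold changes from -1.64 to -0.68 (median -1.04). The 10 without it had fold changes from -1.51 to -0.58 (median -0.99), but among them Bub1, Cdc25b and Ube2s hold the variant TTCGAA. Whether these letters bear on the decline was not tested. A match of letters is a description, not a binding site.

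**Figure D2:**
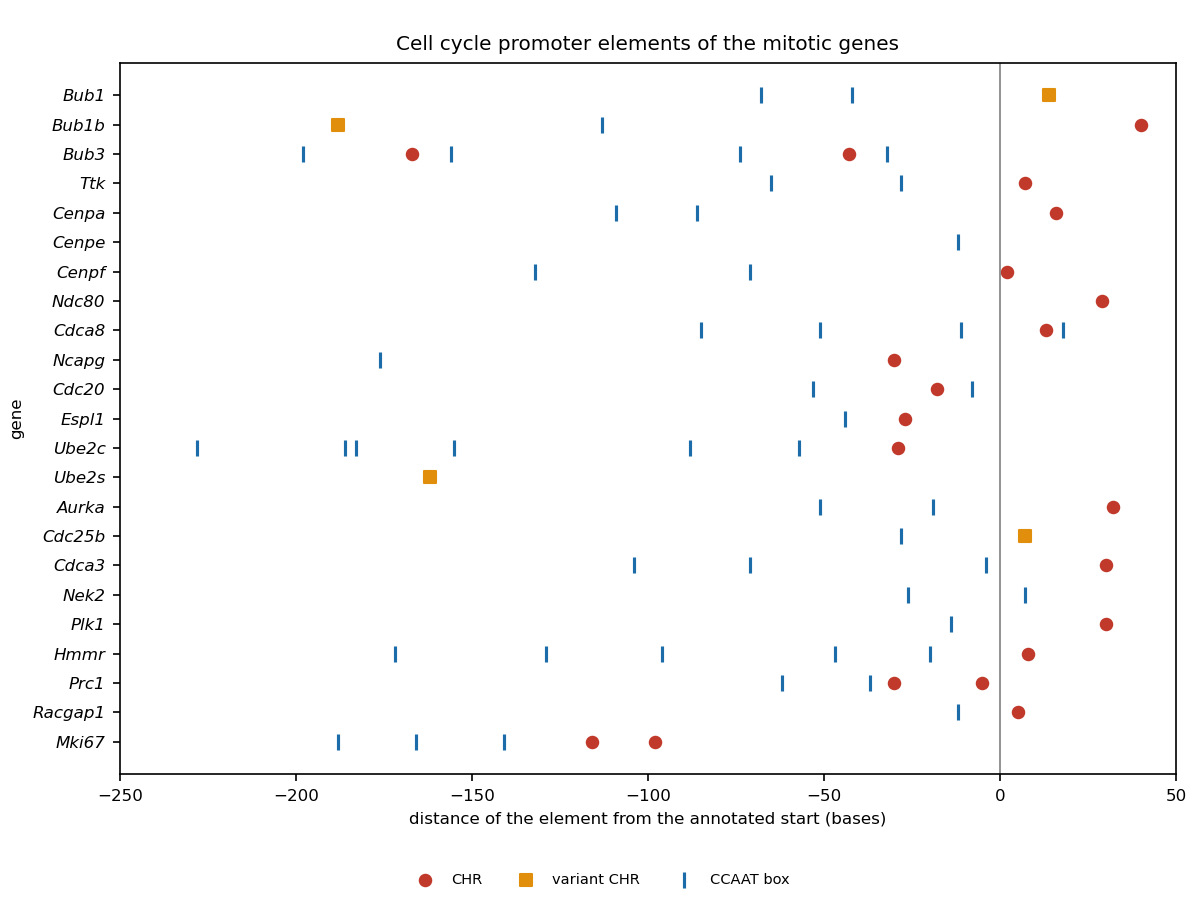
Distance in bases from the annotated start (horizontal axis, 0 at the start) of each match to TTTGAA (CHR, circles), TTCGAA (variant CHR, squares) and CCAAT (bars), on either strand, for the 23 genes with a match (rows). Of the 21 circles 18 lie within 50 bases of the start; 5 genes with a window had no match, and overlapping windows of Bub3 and Prc1 show the same sites more than once.

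Among the checkpoint genes, Bub1b (BubR1, the part of the mitotic checkpoint complex that blocks Cdc20) declined most. It stood at -0.18, -0.20 and -0.19 on the vector arrays and at -1.34, -1.30 and -1.32 on the knockdown arrays, a fold change of -1.13 ± 0.04 (adjusted p = 3.52e-07). Mad2l1 (Mad2, which captures Cdc20 at unattached kinetochores) went from 0.73, 0.79 and 0.73 to -0.31, -0.20 and -0.22, a change of -0.99 ± 0.05 (adjusted p = 1.71e-06). The kinase Ttk (Mps1), which starts the checkpoint signal, stood at 0.61, 0.59 and 0.52 on the vector and at -0.13, -0.15 and -0.15 on the knockdown arrays (-0.72 ± 0.04, adjusted p = 5.03e-06). Bub3, the adaptor that brings Bub1 and BubR1 to kinetochores and whose promoter is shown above, declined least of the 5. Its ratios were 0.17, 0.15 and 0.12 against -0.54, -0.53 and -0.52 (-0.68 ± 0.04, adjusted p = 4.6e-06).

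Bub1, the kinase that marks centromeric histone H2A, is the exception within the set when its probes are compared. Its brightest probe went from -0.30, -0.30 and -0.32 in vector to -1.37, -1.26 and -1.24 in knockdown cells (-0.98 ± 0.05, adjusted p = 1.81e-06). Its second probe, placed on another accession of the gene, went the other way, from -0.71, -0.73 and -0.67 to -0.51, -0.45 and -0.53 (0.20 ± 0.04, adjusted p = 0.00573). The groups do not overlap on either probe. Where the probes lie in the transcripts was not analysed here, and the mean of both gives -0.39.

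All probes were also fitted one by one. Of the 46 probes of the 32 genes, 45 were lower in the knockdown, beside 22.1% of the 33574 probes tested, and the second Bub1 probe was the 1 that was higher. Of the 14 probes that are not their gene's brightest, 3 besides that of Bub1 differed from the brightest by more than 1.5 times. They were another probe of Cdc25b (-0.22 ± 0.06 against -1.14), the second of Cdc25c (-0.67 ± 0.06 against -1.01) and the second of Cenpf (-0.59 ± 0.09 against -1.11).

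**Figure D3:**
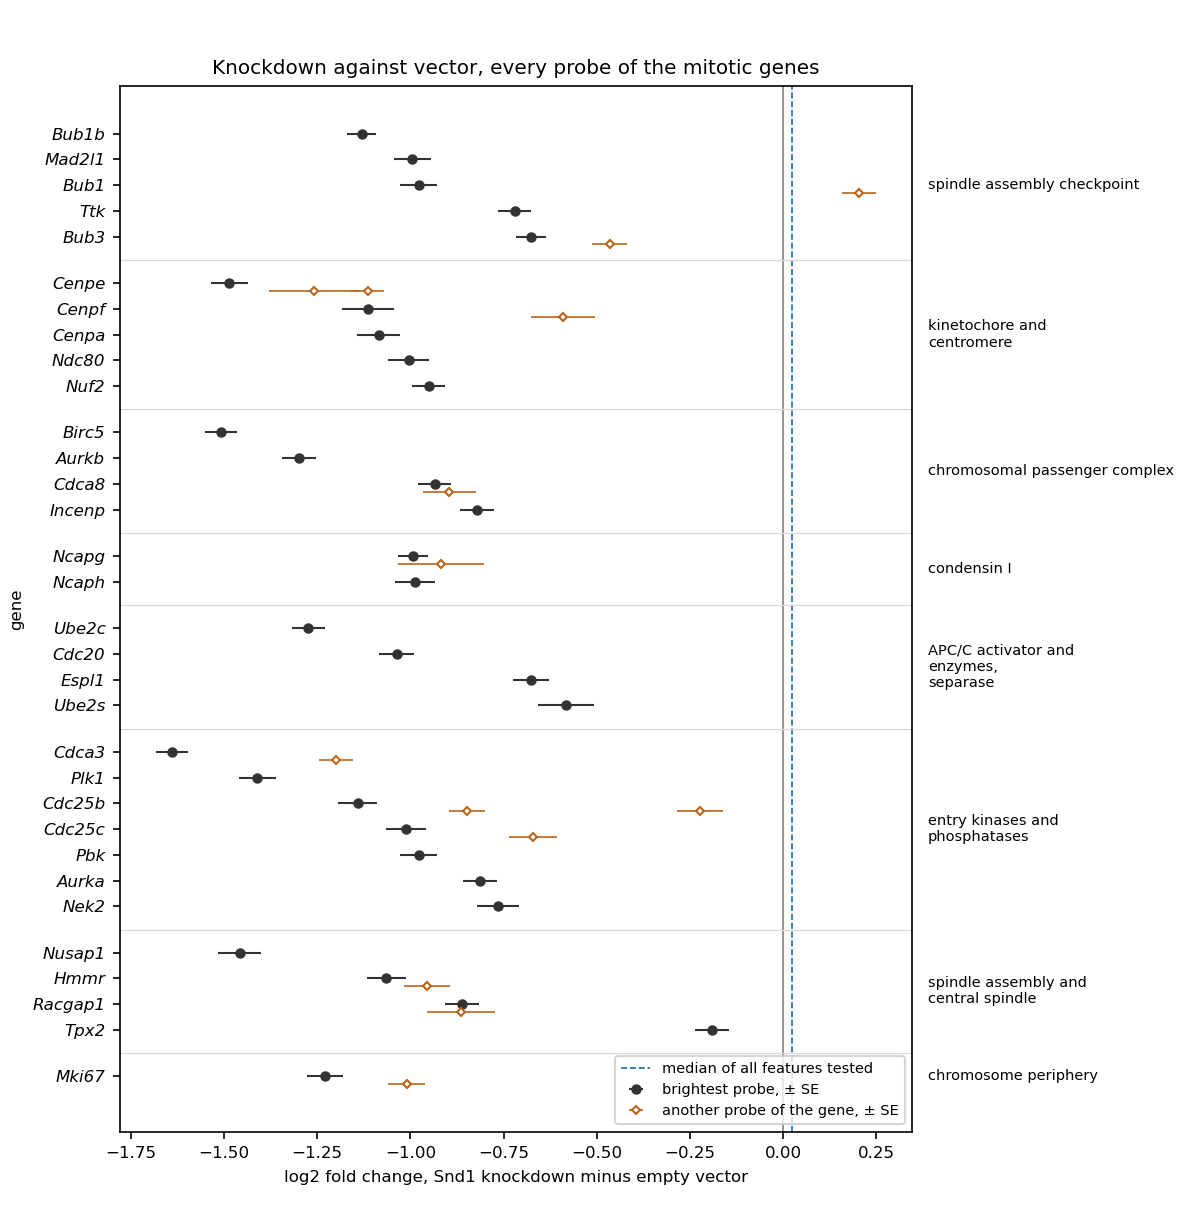
Log2 fold change of knockdown against vector (horizontal axis, ± SE, 3 against 3 arrays) for the brightest probe of each gene (filled circles) and for its other probes (open diamonds), with the median of all 25684 features as a dashed line. Of the 46 probes 45 lie left of 0, and the second Bub1 probe lies right of it at 0.20.

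The 5 kinetochore and centromere genes had a median change of -1.09, beside -0.98 for the 5 checkpoint genes, -1.12 for the 4 passenger complex genes, -0.99 for both condensin genes, -0.86 for the 4 genes of mitotic exit, -1.01 for the 7 entry genes and -0.96 for the 4 spindle genes. Cenpe, the motor that carries chromosomes to the metaphase plate, stood at -0.18 on each of the 3 vector arrays and at -1.75, -1.63 and -1.61 on the knockdown arrays (-1.49 ± 0.05, adjusted p = 2.6e-07). Cenpf, a large outer kinetochore protein that binds microtubules, went from -0.52, -0.46 and -0.47 to -1.75, -1.56 and -1.48 (-1.11 ± 0.07, adjusted p = 5.92e-06). Both genes lay below vector on every knockdown array, and the spread of Cenpf in the knockdown (SD 0.14) was the widest of any of the 32 genes in either group. Cenpa, the histone H3 variant that marks the centromere, went from 0.63, 0.42 and 0.49 to -0.57, -0.58 and -0.56 (-1.09 ± 0.06, adjusted p = 2.68e-06). Ndc80 and Nuf2 form the rod that holds the microtubule end, and they declined together: Ndc80 by -1.01 ± 0.05 (from 0.73 to 0.80 in vector, -0.30 to -0.14 in knockdown) and Nuf2 by -0.95 ± 0.05 (from -0.69 to -0.60 in vector, -1.62 to -1.57 in knockdown).

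Of the passenger complex, which corrects faulty attachments and drives the end of cytokinesis, all 4 genes declined. Birc5 (survivin), which docks the complex on the centromere, had ratios of 2.05, 2.00 and 2.04 in vector and 0.55, 0.49 and 0.52 in knockdown cells (-1.51 ± 0.04, adjusted p = 1.19e-07). The reference channel of this probe differed between the groups, with its median-centred Cy3 signal 0.44 higher in the knockdown on the log2 scale, while the median of that difference over the 32 genes was -0.01. In the Cy5 channel alone, quantile-normalized, the change of Birc5 was -1.01, still lower. The kinase of the complex, Aurkb, went from -0.16, -0.11 and -0.10 to -1.46, -1.38 and -1.43 (-1.30 ± 0.04, adjusted p = 2.91e-07). Its scaffold Incenp went from 0.13, 0.07 and 0.12 to -0.69, -0.77 and -0.68 (-0.82 ± 0.05, adjusted p = 3.04e-06). Cdca8 (borealin) went from 0.27, 0.20 and 0.17 to -0.71, -0.72 and -0.74 (-0.94 ± 0.04, adjusted p = 1.44e-06). By the ratio to the reference, the kinase and the docking subunit had larger declines than the scaffold and borealin, a difference that was not itself tested. In the median-centred Cy5 signal the changes were -1.45 for Aurkb, -1.11 for Birc5, -1.04 for Cdca8 and -0.85 for Incenp. There the docking subunit lay close to borealin.

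Condensin I compacts chromosome arms as the nuclear envelope opens, and Ncapg and Ncaph, its subunits among the genes chosen, declined by almost the same amount. Ncapg, whose promoter is shown above, went from -0.38, -0.42 and -0.38 to -1.38, -1.40 and -1.39 (-0.99 ± 0.04, adjusted p = 6.89e-07). Ncaph, the kleisin that closes the ring, went from 0.93, 0.83 and 0.81 to -0.09, -0.10 and -0.20 (-0.99 ± 0.05, adjusted p = 2.63e-06).

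The genes of mitotic exit declined unevenly. Ube2c, the ubiquitin-conjugating enzyme that starts chains on APC/C substrates and whose promoter is shown above, went from 0.31, 0.35 and 0.27 to -0.96, -0.94 and -1.0 (-1.27 ± 0.04, adjusted p = 3.28e-07). Cdc20, the activator that the checkpoint restrains, went from 0.31, 0.23 and 0.29 to -0.82, -0.74 and -0.73 (-1.04 ± 0.05, adjusted p = 1.18e-06). Separase (Espl1), the protease that cuts cohesin, went from -0.14, -0.25 and -0.23 to -0.92, -0.90 and -0.84 (-0.68 ± 0.05, adjusted p = 1.2e-05). Ube2s, which extends the chains that Ube2c starts, had the second smallest change of the 32 genes. Its ratios were 1.13, 1.31 and 1.32 in vector and 0.80, 0.64 and 0.58 in knockdown cells (-0.58 ± 0.08, adjusted p = 0.000335), and its difference was -0.34 within slide 1 and -0.71 within slide 2.

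The 7 genes that act at entry into mitosis all declined. Cdca3, which helps to destroy the Cdk1 inhibitor Wee1, declined most of all 32 genes: its ratios were 0.41, 0.44 and 0.48 in vector and -1.22, -1.19 and -1.19 in knockdown cells (-1.64 ± 0.04, adjusted p = 7.97e-08). Plk1, the polo kinase that drives centrosome maturation and entry, went from 0.99, 1.1 and 1.12 to -0.37, -0.34 and -0.31 (-1.41 ± 0.05, adjusted p = 3.7e-07). Cdc25b and Cdc25c are phosphatases that switch Cdk1 on. Cdc25b went from -0.81, -0.77 and -0.82 to -1.86, -1.95 and -2.02 (-1.14 ± 0.05), and Cdc25c from 0.38, 0.41 and 0.39 to -0.59, -0.55 and -0.72 (-1.01 ± 0.05). The centrosomal kinases declined less: Aurka changed by -0.81 ± 0.04 (0.15 to 0.22 in vector, -0.67 to -0.58 in knockdown) and Nek2 by -0.76 ± 0.06 (0.67 to 0.77 in vector, -0.10 to 0.05 in knockdown). Pbk, a mitotic kinase of the MAPKK-like family, changed by -0.98 ± 0.05 (-0.43 to -0.31 in vector, -1.39 to -1.34 in knockdown).

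The 4 spindle proteins declined by very different amounts. Nusap1, which bundles microtubules near chromosomes, went from -0.07, 0.05 and 0.05 to -1.54, -1.41 and -1.40 (-1.46 ± 0.06, adjusted p = 5.84e-07). Hmmr, a microtubule protein of the spindle poles, changed by -1.06 ± 0.05 (0.56 to 0.72 in vector, -0.44 to -0.43 in knockdown), and Racgap1, a part of centralspindlin at the midzone, by -0.86 ± 0.04 (-0.28 to -0.23 in vector, -1.17 to -1.09 in knockdown). Tpx2, which activates Aurka on spindle microtubules, hardly moved: its ratios were 0.15, 0.09 and 0.12 in vector and -0.02, -0.08 and -0.11 in knockdown cells (-0.19 ± 0.05, adjusted p = 0.00954). Its groups did not overlap, but its change was 1.14-fold, and -0.34 with median centring in place of loess. Mki67, the surfactant that coats mitotic chromosomes and is used as a marker of proliferation, went from -1.72, -1.81 and -1.71 to -2.99, -3.01 and -2.93 (-1.23 ± 0.05, adjusted p = 5.77e-07).

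Other genes of the same machinery, taken from lists that hold none of the 33, were described in the same fit by counts, without a test of the lists, to be read beside the 21.1% of all features that were lower and the 23.6% that were higher. Of 9 further checkpoint genes, 8 were lower and 0 higher (median -0.33), or 4 lower in the Cy5 channel alone. The Mad2 remodeller Trip13 (-1.03 ± 0.06) and the RZZ subunits Kntc1 (-0.73 ± 0.05) and Zwilch (-0.76 ± 0.06), which recruit the checkpoint proteins to kinetochores, were among the lower, and Mad2l1bp stood at 0.07. Of 29 further kinetochore and centromere genes, 23 were lower and 0 higher (median -0.86). Cenpw (-1.25 ± 0.04), Cenpp (-1.23 ± 0.04) and Oip5 (Mis18-beta, which licenses Cenpa loading; -1.32 ± 0.05) had the smallest p-values. The 6 not called, chosen for naming after their values were seen, were Dsn1, Cenpx, Cenpb, Mis12, Cenpc1 and Cenps, with changes from -0.12 to 0.06. All 6 further condensin subunits were lower (median -0.95), including Ncapd3 (-1.02 ± 0.04), Ncapg2 (-1.01 ± 0.05) and Ncaph2 (-0.89 ± 0.05, and -0.45 by another probe) of condensin II.

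Of 16 APC/C subunits, other activators and inhibitors, 13 were lower and 2 higher, with a median of -0.28, and in the Cy5 channel alone 8 were lower. Fbxo5 (Emi1), an APC/C inhibitor, changed by -0.92 ± 0.05, and the subunits Anapc1 and Cdc23 by -0.77 ± 0.05 and -0.78 ± 0.05. Anapc16 (0.35 ± 0.05) and Anapc7 (0.34 ± 0.06) rose. Of 16 genes of cohesin, its regulators and securin, 11 were lower and 1 higher (median -0.47): the acetyltransferase Esco2 (-1.25 ± 0.04), securin (Pttg1; -1.03 ± 0.04), which holds separase in check, and shugoshin 2 (Sgo2a; -1.0 ± 0.05, and -1.80 by another probe), which guards centromeric cohesin, were lower. The releasing factor Wapl had 0.19 ± 0.05 by its brightest probe and -0.27 by another, and was not called higher with median centring.

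Of 21 further spindle, centrosome and cytokinesis genes, 19 were lower and 1 higher (median -0.74). Ect2, the exchange factor that Racgap1 activates for cytokinesis, changed by -1.35 ± 0.04 (-0.63 by another probe), Haus1 of the augmin complex by -1.39 ± 0.05, and the astrin gene Spag5 by -1.18 ± 0.05 (-0.60 by another probe). The gene that rose was Gtse1, a microtubule-binding protein of G2 first isolated as a p53-induced gene. It stood at 0.43, 0.48 and 0.55 in vector and at 1.55, 1.58 and 1.56 in knockdown cells (1.08 ± 0.05, adjusted p = 9.8e-07), and at 0.03 and 0.06 on the rescue arrays.

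The list of mitotic phosphatases and the Greatwall pathway, which also holds Wee1, was mixed, with 7 of 17 lower and 2 higher (median -0.08). The Greatwall kinase Mastl (-0.95 ± 0.05, and -0.52 to -0.62 by 3 other probes), the phosphatase-targeting protein Cdca2 (-0.87 ± 0.04) and the phosphatase Cdc14a (-0.64 ± 0.04, and -0.19 by another probe) were lower. The Greatwall substrate Ensa (0.66 ± 0.06, but 0.10 and -0.02 by 2 other probes) and Ppp6c (0.28 ± 0.04) were higher. Among 16 transcription regulators of mitotic genes, 8 were lower and 2 higher (median -0.18). Foxm1, which switches on many G2 genes, changed by -0.73 ± 0.04, Mybl2 by -0.65 ± 0.05, and Lin54, the MuvB subunit that contacts the CHR, by -0.59 ± 0.04. Nfyb (0.46 ± 0.04), a subunit of the CCAAT-binding factor, and Lin37 (0.15 ± 0.05) were higher. The 6 mitotic cyclin and Cdk1 genes were all lower (median -0.96), with cyclin B2 (Ccnb2) at -1.54 ± 0.05, cyclin A2 (Ccna2) at -1.28 ± 0.06 and Cks1b at -1.09 ± 0.05.

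**Figure D4:**
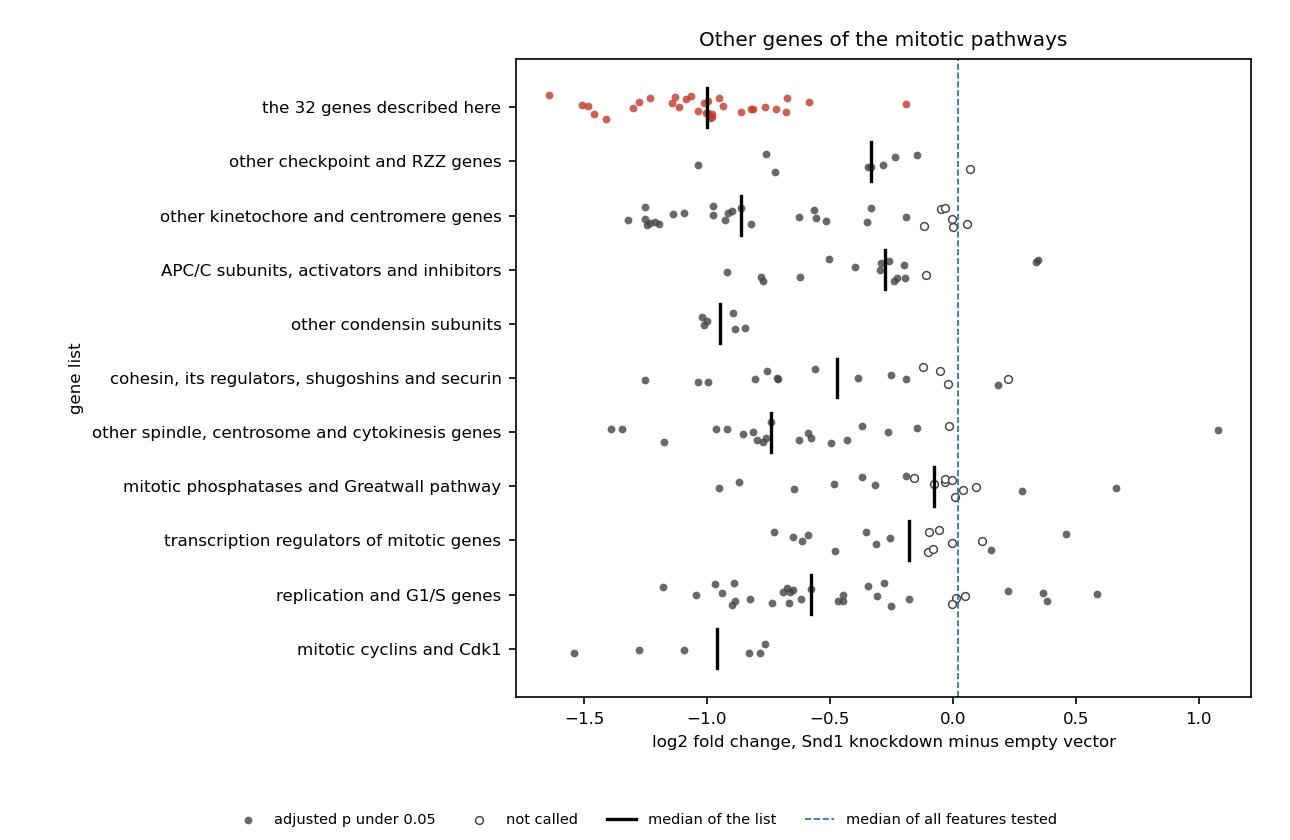
Log2 fold change of knockdown against vector (horizontal axis) of each gene (points) in the 32-gene set (red) and in 10 lists of other genes (rows), with the median of each list (bar) and of all features (dashed line). Filled points passed an adjusted p under 0.05; the phosphatases and the transcription regulators have medians nearest 0, and Gtse1 stands alone at 1.08.

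W391D and wild-type rescue arrays differed little in these genes. With 1 array each, on different slides, there is no test and slide and Mtdh form cannot be told apart, and a difference of 1.2-fold was used as a marker: 31 of the 32 genes lay within it, 1 (Ube2s) was higher in W391D and 0 were lower, beside 2.29% of 27028 features higher and 3.02% lower. The median difference, W391D minus wild type, was 0.06, or -0.02 with median centring in place of loess, and 23 of the 32 were above 0 against 49.8% of all features. Ube2s stood at 0.83 with W391D and 0.21 with wild-type Mtdh, a difference of 0.62. The next largest were Espl1 (0.19), Cenpe (0.15) and, on the other side, Birc5 (-0.19) and Ndc80 (-0.14). These counts and values are those of the brightest probes. Another probe of Ncapg had -0.54 (0.04 by the brightest) and another of Cenpe had -0.37, both past 1.2-fold lower in W391D. The remaining probe of Cenpe had 0.13. In the Cy5 channel alone, without the reference, 10 genes were past 1.2-fold higher and 3 lower. In that channel 12.6% of all features were past it higher and 12.6% lower. Mtdh itself was lower by 0.52 on the W391D array, and the knockdown changed it by -0.12 (adjusted p = 0.12).

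**Figure D5:**
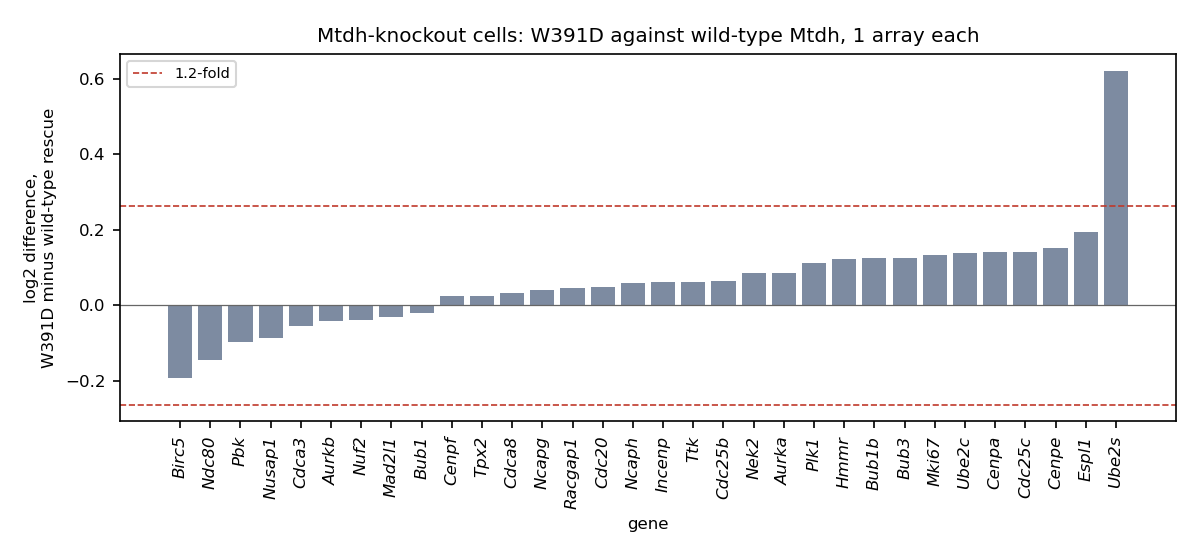
Difference of the log2 ratio between the W391D and the wild-type rescue array (vertical axis) for the brightest probe of each of the 32 genes (bars, in order), with dashed lines at 1.2-fold. Only the bar of Ube2s, at 0.62, passes a line; the others lie between -0.19 (Birc5) and 0.19 (Espl1).

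The rescue arrays were set against the knockdown and the vector arrays gene by gene. For 31 of the 32 genes both rescue arrays were above all 3 knockdown arrays, an order seen in 31.4% of 28583 features. The exception by brightest probe was Ube2s, whose wild-type rescue value of 0.21 lay below the knockdown range of 0.58 to 0.80. On the second Bub1 probe both rescue values (-0.61 and -0.59) lay below the knockdown range of -0.53 to -0.45. On another Cdc25b probe they (-0.37 and -0.33) lay within the knockdown range of -0.44 to -0.32. Against vector, 12 genes had both rescue arrays above all 3 vector arrays, 14 had both below, and 6 were not apart, with a median difference of -0.02. How many of all features are apart in the same way was not counted, so these counts are not read as particular to the genes. Mki67 stood highest over vector (-0.78 and -0.65 on the rescue arrays, 1.03 above the vector mean), followed by Cenpf (0.37 and 0.40, 0.87 above), Incenp (0.56 and 0.62, 0.49 above) and Cenpe (0.20 and 0.35, 0.46 above). Ube2s stood farthest below vector (-0.74), then Ndc80 (-0.55), Mad2l1 (-0.45) and Cdc25c (-0.43). By their brightest probes, Ndc80 and Mad2l1 were thus lower and Cenpf and Cenpe higher in the rescue line, although all 4 belong to kinetochore and checkpoint. The place against vector depended on the probe for some genes. Other probes gave 0.26 and -0.05 for Cenpe and 0.71 for Cenpf. Second probes gave -0.57 for Racgap1 (0.10 by the brightest) and 0.34 for Bub3 (-0.09 by the brightest). The lines differ in genotype, origin, vector and selection, and their arrays lie on other slides than the vector and knockdown arrays, which cannot be told apart.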

How the data were processed

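The authors hybridised 1 Cy5-labelled sample per array against a Cy3-labelled reference, per the labels' protocols, with no dye swap. Per the file headers, the deposited spot values are median intensity per dye and its local background, from Agilent Feature Extraction 11.0.1.1 (9.5.3.1 in the submitters' processing notes). The same files hold that software's log10 ratios and its flags, and the authors deposited a table of log2 ratios of Cy5 to Cy3 which correlated with each array's own log10 ratios at 0.988 or more (column medians 0.026 to 0.146, not centred). The log10 and log2 values were used as alternatives only.

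Background was corrected by normexp (offset 50) and ratios were normalized by loess within arrays, using limma 3.58.1 under R 4.3.3, leaving out 1639 control spots and 77 to 142 outlier spots per array.  Accessions were matched to current symbols in RefSeq's GRCm38.p6 table, which named 27668 of 41174 probes, and the brightest probe stood for a gene. Features whose Cy5 flag was set on 3 or more of the 6 knockdown and vector arrays were fitted with lmFit and eBayes, with Benjamini-Hochberg adjustment over all of them. The number of arrays limits the precision.

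Same-numbered knockdown and vector arrays deviated together (r = 0.597, 0.326 and 0.338), and are treated as pairs in an alternative. Arrays of slide 2 with different numbers did so as well (r = 0.390 and 0.247), so the numbers follow the slides. Alternatives changed the background correction, normalization, source of ratios, channel, filter, probe summary, blocks, variance model, call rule and replicates. The rule for names took all 33 genes, Snd1, Mtdh and Cdkn1a, and of each other list up to 3 called genes with the smallest p, with up to 3 called against the median for lists other than cell type markers. The genes and lists were chosen with earlier results of these data known.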

Additional observations from a re-analysis of the deposited data

How the results depend on the processing

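Over 22 alternatives to the comparison of knockdown with vector, all 32 genes kept their direction and passed in each, with the exception of the rule that also asks for 1.5-fold, under which 30 passed and Ube2s and Tpx2 did not. The largest adjusted p in any of them was 0.0467 (Ube2s, Cy5 channel alone). With the replicate block, which pairs arrays by number, the median stayed at -1.0 and all 32 genes were lower, and the block changed no call among them. The median log2 fold change was -1.21 with median centring, -1.09 with the software's log ratios and with the series' value table, -1.08 with the Cy5 channel alone and -0.97 with the mean of a gene's probes, and leaving out 1 replicate gave -1.03 to -0.998. Values of 3 single genes moved by over 1.5 times: Tpx2 had -0.34 with median centring and -0.31 with Cy5 alone, Bub1 had -0.39 and Cdc25b -0.74 with the mean of probes. Of the other lists, the further checkpoint genes had 4 lower and the APC/C genes 8 lower with Cy5 alone. Between the rescue arrays, median centring put 1 gene (Birc5) past 1.2-fold lower, beside 5.14% of all features, and gave a median of -0.018. Cy5 alone gave 10 higher, 3 lower and a median of 0.16, beside 12.6% of all features higher and 12.6% lower. The cause of these shifts was not tested. With 1 array per rescue group and 3 per knockdown group, small differences such as those of Tpx2 are near the limit of what the arrays resolve.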

Other observations

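Genes of the preceding phase of the cycle moved in the same direction with more exceptions. Of 31 replication and G1/S genes measured, 24 were lower in the knockdown, 4 were higher and 3 were not called. Of all features tested, 21.1% were lower and 23.6% higher. The median of the replication and G1/S genes was -0.58, against -1.0 for the mitotic genes, a difference that was not tested. Prim1, the catalytic subunit of primase, changed by -1.18 ± 0.05, the ribonucleotide reductase subunit Rrm1 by -0.88 ± 0.04, and the clamp loader subunit Rfc4 by -0.90 ± 0.04. Cyclin E1 (Ccne1) was higher, with 0.26, 0.18 and 0.22 in vector and 0.89, 0.71 and 0.81 in knockdown cells (0.59 ± 0.06, and 0.37 by another probe). The histone messenger-binding protein Slbp (0.37 ± 0.05) and the sliding clamp Pcna (0.23 ± 0.05) were higher as well.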
